A study of Mus musculus with 48 samples.

Results

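The genes described here are 9 transcription factors that pattern the vertebrate limb: Pitx1, Tbx4, Tbx5, Hand2, Alx4, Tbx2, Tbx3, Shox2 and Lmx1b. They were chosen by name, as a list of limb identity factors, with earlier results of these data already known. All 9 were found among the 27179 genes of the count table. Pitx1 and Tbx4 are known from the hindlimb bud, and Tbx5, a close relative of Tbx4, is known from the forelimb bud. Hand2 acts at the posterior side of the limb bud upstream of Sonic hedgehog, Alx4 acts at the anterior side, and Lmx1b sets dorsal identity. Tbx2 and Tbx3 are related repressors of transcription, and Shox2 is needed for the proximal limb skeleton. In later limbs, several of these factors are known from the connective tissue cells around which muscles and tendons take shape.

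The mice were males of the inbred strain FVB/NJ, and polyadenylated RNA of 4 muscles of the hindlimb was sequenced in embryos at E18.5 (E for embryonic day), shortly before birth, and in adults. The soleus and the vastus intermedius were selected by the submitters as slow-biased muscles, rich in slow fibres, and the gastrocnemius and the vastus lateralis as fast-biased muscles. The labels name no mutation or treatment in any group, and each of the 8 groups of stage and muscle had 6 libraries, 1 from each of 6 animals, with all 4 muscles taken from the same mice. The labels give 2 adult ages: the design text places the adults at postnatal day 56, and the growth protocol states that adult mice were obtained at 3 to 4 months. Both vastus muscles lie in the thigh, at its front, and the soleus and gastrocnemius lie in the shank, at its back. A difference between these pairs therefore cannot be told apart from other differences between knee extensors and calf muscles.

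Libraries held 14.9 M to 32.4 M counts, with a median of 22.9 M, so that a count of 0 allowed 3 counts, or 0.0926 to 0.201 CPM (counts scaled to library size) of the plain totals. Levels in CPM given below also carry the TMM scaling factors of edgeR. All intervals from counts cover counting error only. The library labelled adult vastus intermedius, collection B, was left out, which left 47 libraries. Its level of the embryonic myosin gene Myh3 was 8922 CPM, where the 5 adult libraries of that muscle had 6.19 to 22.8 CPM and the E18.5 ones 8420 to 13440 CPM. Collections A to F are the 6 sets of 4 libraries at each stage that share a tag in their names, taken as the animals, and the letters do not link the stages. Counts of animals by direction compare muscles within a collection. With 3 libraries left, adult collection B enters these counts with vastus lateralis alone as thigh and soleus alone as slow-biased. The tags are dates, some with a letter, and no label says what a date marks. Collections C, D and E share a date at E18.5, and D and E share 1 in adults. Litters are not given, so animals of 1 date may be littermates, and p-values treat them as independent. The main comparisons of muscles also hold no term for the animal, so the 4 muscles of 1 mouse enter them as independent libraries. No date is shared between the stages, so date and stage cannot be told apart. The 6 genes taken as markers of muscle fibres together reached 8639 to 34561 CPM in E18.5 libraries and 84039 to 230443 CPM in adult libraries. In whole muscle, fewer cells of a type and less RNA per cell cannot be told apart.

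Among the 9 genes, the sharpest contrast between muscles lay in Hand2 and Tbx5, and Tbx4 is the hindlimb relative of Tbx5. The bases before the start site are shown for Hand2 and Tbx4, the 2 of these 3 genes with an entry in the RefSeq promoter table (build GRCm38.p6). Pitx1, Tbx5, Alx4, Tbx2 and Tbx3 had no entry, and 4 of the 9 genes were matched. Each run is 250 bases, 5′ to 3′, on the + strand, and ends at the base before the start that this table lists. Capitals mark E-boxes (CANNTG), the motif that bHLH factors bind, and the homeodomain core TAATTA, both searched on both strands. The Hand2 window lies at chr8:57320733-57320982 and the Tbx4 window at chr11:85896515-85896764, inside the annotated span of Tbx4, which begins at a start further upstream.
Hand2: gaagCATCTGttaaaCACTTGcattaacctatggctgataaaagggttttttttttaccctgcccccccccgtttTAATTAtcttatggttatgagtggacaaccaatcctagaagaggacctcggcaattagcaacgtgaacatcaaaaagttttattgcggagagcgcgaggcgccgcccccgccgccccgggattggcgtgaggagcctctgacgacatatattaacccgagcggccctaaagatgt
Tbx4: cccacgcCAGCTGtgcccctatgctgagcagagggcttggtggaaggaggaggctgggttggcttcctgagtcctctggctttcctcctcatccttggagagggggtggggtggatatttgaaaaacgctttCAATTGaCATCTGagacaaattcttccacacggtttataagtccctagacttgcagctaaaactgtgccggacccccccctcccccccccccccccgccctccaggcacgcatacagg

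The Hand2 window held 2 E-boxes, 1 TAATTA and 2 CCAAT boxes, with a GC content of 49.2%. The Tbx4 window held 3 E-boxes and 1 TATAAA, with a GC content of 58.4%. All motif counts cover both strands. On the strand shown, the TATAAA of Tbx4 reads TTTATA, and 1 of the 2 CCAAT boxes of Hand2 reads ATTGG. Over 32851 promoter windows of the same length, the median GC content was 52.4%, and CANNTG occurred in 66.2%, TAATTA in 4.84%, CCAAT in 33.8% and TATAAA in 12.4%. The hexamer GGTGTG of T-box proteins, found in 16.3% of windows, and the TAATCC core of Pitx proteins, found in 6.25%, were in neither window. The Shox2 window held 1 TATAAA, and the Lmx1b window held 1 E-box and 2 CCAAT boxes. These matches describe letters in a window and nothing more.

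**Figure D1:**
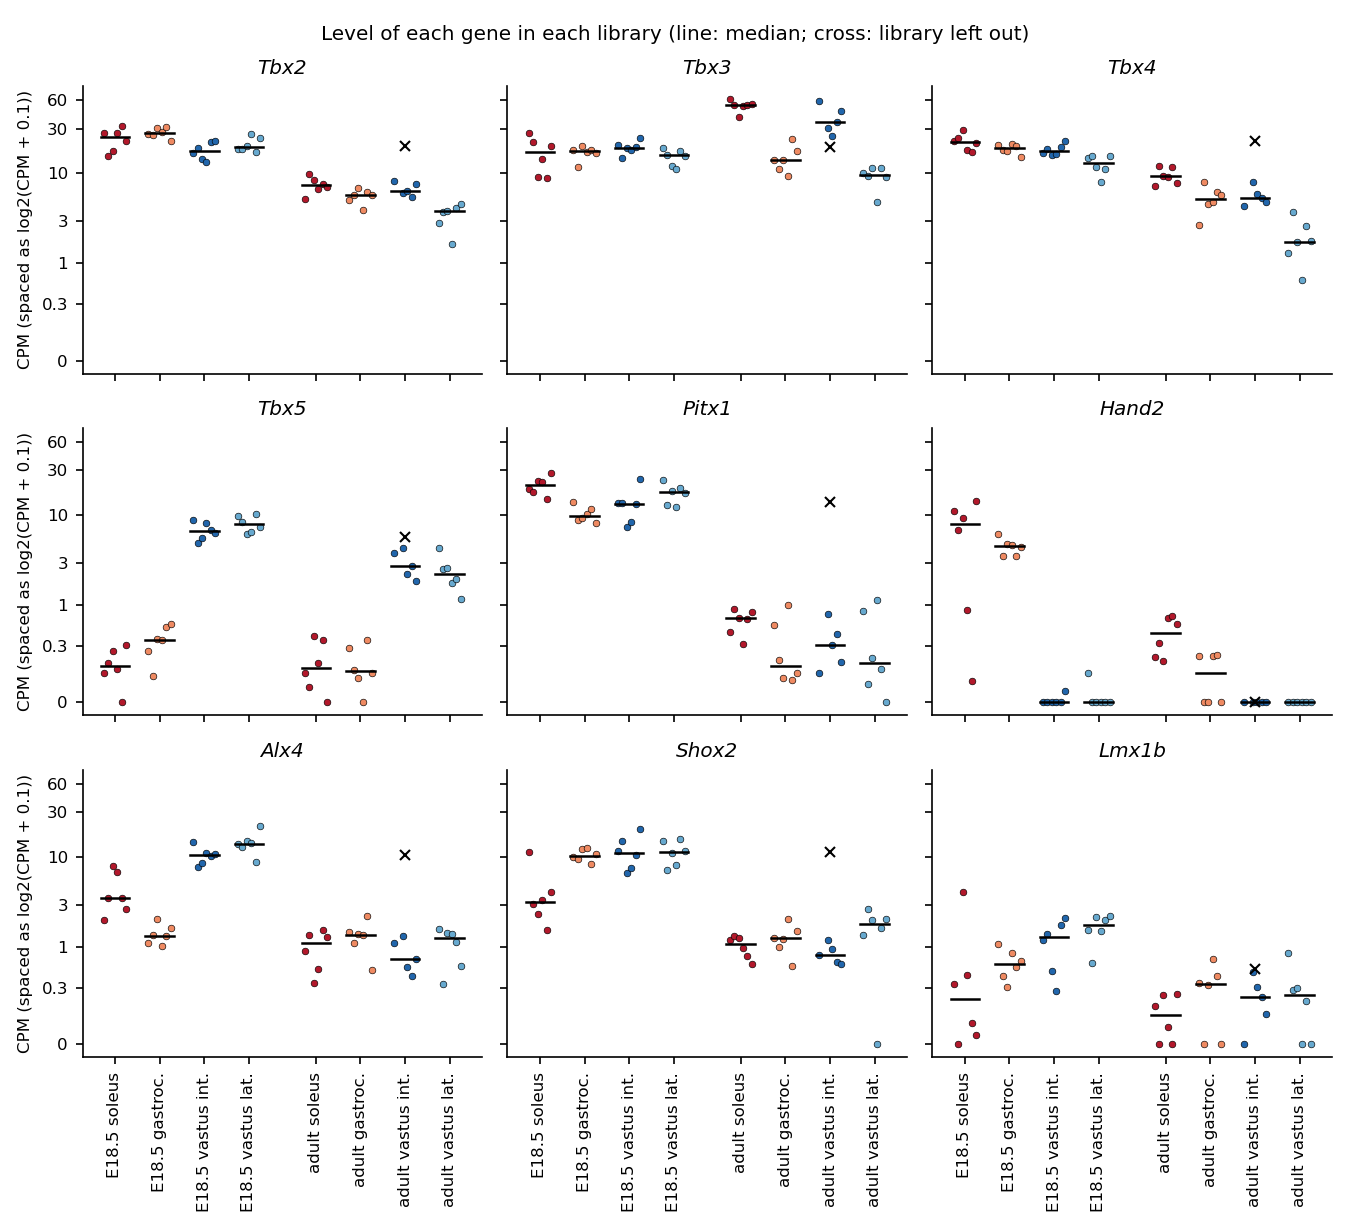
Level of each of the 9 genes in each library, in CPM on an axis spaced as log2(CPM + 0.1), for 4 muscles at E18.5 and in adults (each point is a library, the line is the group median, the cross is the adult vastus intermedius library that was left out). Tbx5 lies above 4.9 CPM in every E18.5 vastus library and below 0.6 CPM in every E18.5 shank library, and Pitx1 lies above 7.4 CPM in every E18.5 library and below 1.2 CPM in every adult library kept.

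Thigh and shank were compared within each stage by edgeR's quasi-likelihood test, as the mean of both vastus muscles minus the mean of soleus and gastrocnemius, with p-values adjusted over all genes tested and a threshold of 0.05. At E18.5 all 9 genes passed the filter on low counts, and 6 of 9 passed the test: Tbx5, Alx4 and Shox2 were higher in the thigh, and Hand2, Tbx4 and Tbx2 were lower. Of all 15751 genes tested, 24.8% passed, 14.1% as higher and 10.7% as lower. In adults 7 of the 9 genes passed the filter, all but Hand2 and Lmx1b, and 4 of 7 passed the test, against 19.1% of 14304 genes (11.6% higher, 7.55% lower). Tbx5 was again higher in the thigh, and Tbx4, Tbx3 and Tbx2 were lower. The authors' adult DESeq2 comparison gave adjusted p-values of 5.58e-23 for Tbx5, 0.0733 for Tbx4, 0.503 for Tbx3 and 0.347 for Tbx2. The median log2 difference of the genes was 0.04 at E18.5, against -0.03 over all genes, and -0.37 in adults, against -0.01. Leaving out adult collection E or F, or keeping the left-out library, lowered the adult count of 4 to 2.

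**Figure D2:**
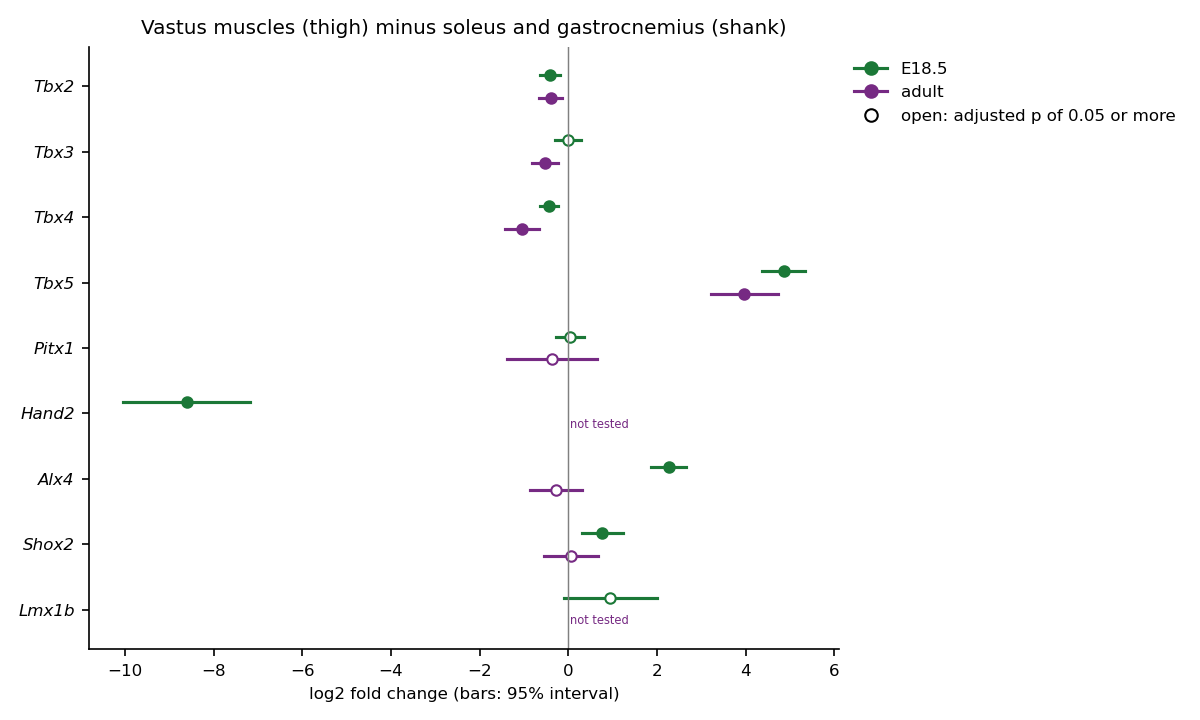
Thigh minus shank at E18.5 (green) and in adults (purple) for each gene, as the log2 fold change of edgeR's fit with its 95% interval; filled points passed the test. Tbx5 stands at 4.86 and 3.98, Hand2 at -8.61 at E18.5, and Alx4 falls from 2.26 at E18.5 to -0.28 in adults.

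Of the genes tied to the hindlimb or forelimb bud, Pitx1, Tbx4 and Tbx5, the last differed most clearly between thigh and shank. Tbx5 (chr5:119796514-119885220, GRCm38.p6) was measured at 4.93, 6.67 and 8.86 CPM (lowest, median and highest of 6) in E18.5 vastus intermedius and at 6.21, 7.93 and 10.1 CPM in vastus lateralis. In E18.5 gastrocnemius it was at 0.0924, 0.369 and 0.593 CPM, and in soleus at 0, 0.145 and 0.307 CPM. No E18.5 shank library reached the lowest thigh library. The difference was 4.86 ± 0.24 on the log2 scale (SE; adjusted p = 2.15e-12), the lowest p of all genes tested, and had the same direction in 6 of 6 animals. From summed counts without further scaling, 2908 against 113, the ratio was 24.4 (95% interval 20.2 to 29.7).

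In adults Tbx5 was at 1.90, 2.77 and 4.42 CPM in vastus intermedius (n = 5) and at 1.16, 2.26 and 4.36 CPM in vastus lateralis (n = 6). It stood at 0, 0.114 and 0.365 CPM in gastrocnemius and at 0, 0.134 and 0.407 CPM in soleus. Again no shank library reached the lowest thigh library. The difference was 3.98 ± 0.39 (SE; adjusted p = 2.37e-07), in the same direction in 6 of 6 animals, and 4.08 (adjusted p = 1.23e-06) with the left-out library kept. The summed counts, 493 against 34, gave a ratio of 14.97 (10.6 to 21.9). The authors' deposited tables list Tbx5 first by p-value in the same comparison at both stages, at 4.77 and 4.02. Within the thigh the vastus muscles did not pass the test of a difference, at -0.24 (vastus intermedius minus vastus lateralis, 95% interval -0.76 to 0.28) at E18.5 and 0.37 (-0.49 to 1.23) in adults. Within the shank, soleus minus gastrocnemius was -1.17 (-1.96 to -0.38; adjusted p = 0.308) at E18.5.

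With age, Tbx5 decreased by 1.14 ± 0.24 in vastus intermedius (adjusted p = 6.85e-04) and by 1.75 ± 0.26 in vastus lateralis (adjusted p = 2.11e-05), and adult and E18.5 libraries did not overlap in either muscle. With the left-out library kept, the first of these was a decrease by 0.94 (adjusted p = 0.0112). Soleus and gastrocnemius had too few counts for this test. The difference between thigh and shank itself changed by -0.88 ± 0.49 from E18.5 to adult (adjusted p = 0.284). A lncRNA gene, Gm5563, overlaps Tbx5, and their reads could not be told apart if strand was not used in the counting.

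Tbx4 (chr11:85886367-85916097) was present in every library of every muscle. At E18.5 it stood at 16.7, 21.6 and 29.1 CPM in soleus, 14.7, 18.7 and 20.4 CPM in gastrocnemius, 15.4, 17.2 and 22.1 CPM in vastus intermedius and 8.02, 13.0 and 15.2 CPM in vastus lateralis. The ranges overlapped, with vastus lateralis lowest. Its thigh minus shank difference was -0.43 ± 0.10 (adjusted p = 0.00314), lower in 5 of 6 animals. Vastus lateralis was below soleus by 0.81 ± 0.15 (adjusted p = 9.69e-04) and below gastrocnemius by 0.56 ± 0.15 (adjusted p = 0.0145), and no other pair of muscles passed the test. Vastus intermedius minus vastus lateralis was 0.51 (95% interval 0.23 to 0.80; unadjusted p = 0.00176, adjusted p = 0.446).

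Adult Tbx4 was at 7.17, 9.16 and 11.8 CPM in soleus, 2.704, 5.27 and 8.01 CPM in gastrocnemius, 4.43, 5.39 and 8.00 CPM in vastus intermedius (n = 5) and 0.634, 1.77 and 3.79 CPM in vastus lateralis. Every adult soleus library lay above every vastus lateralis library. In adults, thigh minus shank was -1.05 ± 0.20 (adjusted p = 5.59e-04), lower in 6 of 6 animals, and -0.76 (adjusted p = 0.0843) with the left-out library kept. Slow-biased minus fast-biased muscles, the mean of soleus and vastus intermedius minus the mean of the others, was 1.18 ± 0.20 (adjusted p = 1.17e-05; 1.47, adjusted p = 6.75e-05, with that library), higher in 6 of 6 animals.

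Tbx4 fell with age in all 4 muscles, by 1.22 in soleus, 1.80 in gastrocnemius, 1.62 in vastus intermedius and 2.64 in vastus lateralis (log2; adjusted p from 2.10e-07 to 6.20e-06), with no overlap between stages. With the left-out library kept, the change in vastus intermedius was -1.06 (adjusted p = 0.0252). Per kilobase of the length listed in the count table, which allows genes to be compared, Tbx5 was at 0.227 to 0.763 of the level of Tbx4 in E18.5 thigh libraries, with medians of 0.2998 in vastus intermedius and 0.508 in vastus lateralis. In adults the medians were 0.424 and 0.938. The highest ratio, 2.74, was in an adult vastus lateralis library. Shank libraries of either stage did not exceed 0.0870. In adult vastus lateralis the levels of this pair were thus close, at 0.611 ± 0.278 CPM per kb for Tbx5 and 0.609 ± 0.337 for Tbx4 (SD, n = 6).

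Pitx1 (chr13:55825044-55836190), which acts upstream of Tbx4 in the hindlimb bud, was expressed at E18.5 and low in adults. At E18.5 it was at 14.99, 20.7 and 28.2 CPM in soleus, 8.08, 9.66 and 13.8 CPM in gastrocnemius, 7.42, 13.2 and 24.5 CPM in vastus intermedius and 12.2, 17.6 and 23.8 CPM in vastus lateralis. Soleus exceeded gastrocnemius in every library, by 1.02 ± 0.22 (adjusted p = 0.0480), a pair in which 2 of 9 genes passed, against 0.286% of all genes. Gastrocnemius was below vastus lateralis by 0.72 ± 0.22 (adjusted p = 0.0377). Soleus minus vastus intermedius was 0.65, with an adjusted p of 0.0594 that became 0.0249 with a block for the animal and 0.0295 with DESeq2. Thigh minus shank was 0.04 (95% interval -0.27 to 0.35; adjusted p = 0.889).

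Adult Pitx1 did not exceed 1.14 CPM in the 23 libraries kept, with group medians of 0.691 CPM in soleus, 0.145 in gastrocnemius, 0.313 in vastus intermedius and 0.163 in vastus lateralis. All of these lay below every E18.5 library. It fell by 5.00 ± 0.22 in soleus, 4.98 ± 0.39 in gastrocnemius, 5.19 ± 0.45 in vastus intermedius and 5.69 ± 0.48 in vastus lateralis (log2 ± SE; adjusted p from 2.73e-11 to 1.69e-07). Pitx1 therefore differed by 31.7-fold to 51.5-fold between the stages. With the left-out library kept, vastus intermedius gave a decrease by 2.31 (adjusted p = 0.0620). That library held 13.9 CPM, and the other 5 held 0.107 to 0.773 CPM. Adult slow-biased minus fast-biased for Pitx1 was 0.52 (adjusted p = 0.388), and 1.94 (adjusted p = 0.0259) with it.

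Hand2 (chr8:57320983-57324517), the posterior factor, was found mainly in the shank. In E18.5 gastrocnemius it was at 3.54, 4.63 and 6.26 CPM. In E18.5 soleus it ranged from 0.0678 CPM in collection E and 0.860 CPM in collection D to 6.83, 9.17, 10.99 and 13.99 CPM in collections B, C, A and F. The 12 E18.5 thigh libraries together held 5 counts, 1 in vastus intermedius and 4 in vastus lateralis, and 10 of them held none. All gastrocnemius libraries lay above all thigh libraries, whereas soleus of collection E, with 2 counts, fell below the highest thigh library at 0.106 CPM.

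Thigh minus shank for Hand2 was -8.61 ± 0.73 (SE; adjusted p = 5.14e-08), lower in 6 of 6 animals. From 2466 counts in the shank and 5 in the thigh, the ratio was 520, with a wide interval of 223 to 1604. Gastrocnemius over vastus lateralis gave 259 (101 to 952). The spread within E18.5 soleus, 6.98 ± 5.57 CPM (SD, n = 6), exceeded the difference between soleus and gastrocnemius, which was 0.61 (95% interval -0.47 to 1.68; adjusted p = 0.872). The soleus library of collection E also held 24095 CPM of the 6 muscle fibre genes, the highest of the 6 soleus libraries, and 963 CPM of the 6 tendon genes, where the group's range was 386 to 1070 CPM. Their part in the Hand2 spread was not tested.

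Adult Hand2 was low in soleus, at 0.175, 0.457 and 0.736 CPM (3 to 14 counts a library, 53 in all). In gastrocnemius it had 9 counts in all, and 3 of 6 libraries held none. The 11 adult vastus libraries held 0 counts, as did the left-out library. Set against a floor of 3 counts over the whole thigh group, Hand2 was at least 20.02-fold higher in the adult shank, where 53 of 62 counts were from soleus. With the floor set over 1 muscle, Hand2 was at least 14.7-fold higher in soleus than in vastus intermedius. In gastrocnemius it was at least 3.30-fold higher than in vastus lateralis. It was too low for the filter. With age Hand2 fell by 3.94 ± 0.83 in soleus (adjusted p = 5.06e-04) and by 5.46 ± 0.45 in gastrocnemius (adjusted p = 1.24e-08), where the stages did not overlap, while in soleus they did. The antisense gene Hand2os1, which lies just before Hand2 and is not analysed here, shares 15.8% of the 50-base words of the Hand2 transcript.

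**Figure D3:**
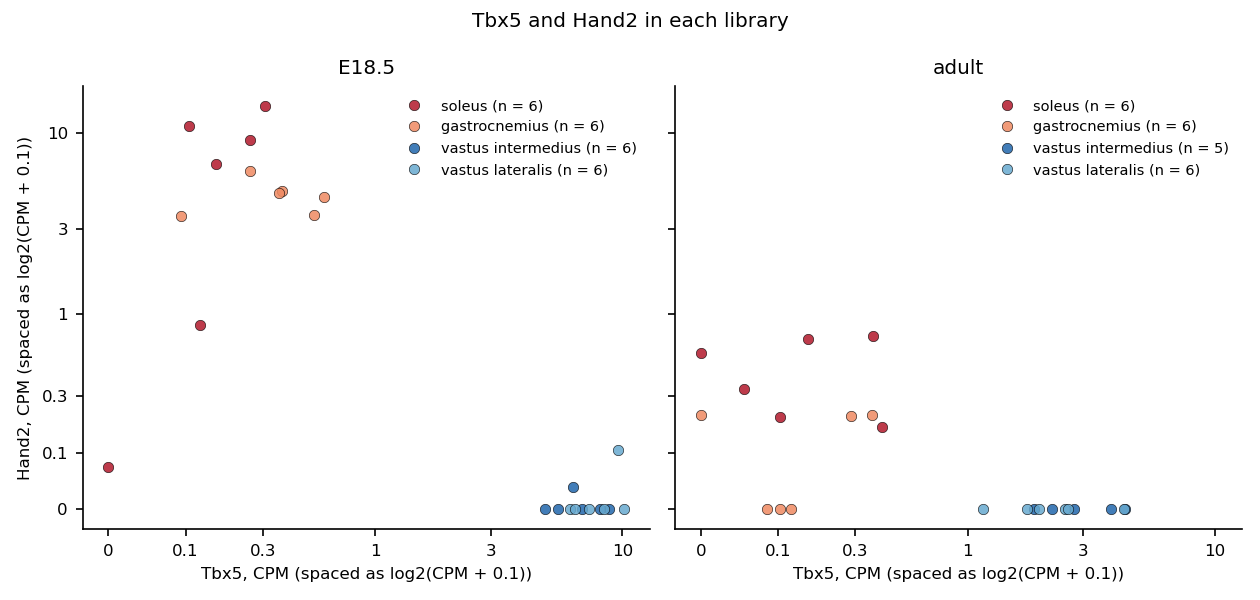
Tbx5 (horizontal) against Hand2 (vertical) in each library, in CPM on axes spaced as log2(CPM + 0.1), at E18.5 on the left and in adults on the right, with 1 point per library coloured by muscle. Every thigh library has more Tbx5 than every shank library of its stage, and Hand2 is at 0 in 10 of 12 E18.5 and all 11 adult thigh libraries.

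Alx4 (chr2:93642434-93681341), the anterior factor, was high in the E18.5 thigh. Values were 7.67, 10.5 and 14.5 CPM in vastus intermedius and 8.81, 13.9 and 21.6 CPM in vastus lateralis, against 2.02, 3.56 and 7.89 CPM in soleus and 1.03, 1.34 and 2.06 CPM in gastrocnemius. A single soleus library, collection C at 7.89 CPM, lay above the lowest thigh library at 7.67 CPM. The thigh exceeded the shank by 2.26 ± 0.20 (adjusted p = 7.45e-08), higher in 6 of 6 animals. Soleus exceeded gastrocnemius by 1.62 ± 0.29 (adjusted p = 0.00944), so the order at E18.5 was gastrocnemius, soleus and then both vastus muscles, which did not differ beyond their spread (-0.44, 95% interval -0.95 to 0.06).

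In adults the Alx4 difference did not pass the test. All 4 muscles overlapped, at 1.36 ± 0.564 CPM in gastrocnemius, 1.01 ± 0.494 in soleus, 0.834 ± 0.376 in vastus intermedius and 1.09 ± 0.512 in vastus lateralis (SD, n = 6, or 5 in vastus intermedius). Thigh minus shank was -0.28 (95% interval -0.87 to 0.31; adjusted p = 0.574). The change of that difference from E18.5 to adult was -2.57 ± 0.35 (adjusted p = 1.39e-06), and -1.78 (adjusted p = 0.0159) with the left-out library kept. Alx4 decreased by 3.59 in vastus intermedius, 3.75 in vastus lateralis and 2.14 in soleus (adjusted p = 4.28e-08, 2.87e-08 and 1.81e-04), and by 2.06 in vastus intermedius (adjusted p = 0.0241) with that library. In gastrocnemius adult minus E18.5 was -0.12 (95% interval -0.72 to 0.48). The slow-to-fast difference of Alx4 changed with stage by -0.96 ± 0.35 (adjusted p = 0.0187), but it no longer passed the test without E18.5 collection D or adult collection A, D or E, nor with the left-out library kept (-0.18, adjusted p = 0.788).

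The pair of related repressors, Tbx2 and Tbx3, diverged with age. Tbx2 (chr11:85832615-85841948) lies 44.4 kb from Tbx4, and Tbx3 (chr5:119670534-119684724) lies 112 kb from Tbx5. At E18.5 Tbx3 was at 8.88, 16.97 and 27.1 CPM in soleus, 11.6, 17.3 and 19.6 CPM in gastrocnemius, 14.6, 18.7 and 23.5 CPM in vastus intermedius and 11.1, 15.5 and 18.6 CPM in vastus lateralis. The 4 muscles overlapped and none of the 6 pairs passed the test. In adults Tbx3 was at 40.4, 54.1 and 62.1 CPM in soleus and 25.005, 35.04 and 59.9 CPM in vastus intermedius, against 9.31, 13.7 and 23.2 CPM in gastrocnemius and 4.82, 9.63 and 11.5 CPM in vastus lateralis. Every adult slow-biased library exceeded every adult fast-biased library.

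Adult slow-biased minus fast-biased for Tbx3 was 1.99 ± 0.16 (adjusted p = 8.86e-11), higher in 6 of 6 animals, and 1.91 with the left-out library kept. Of the 7 genes tested, 3 passed in this comparison, Tbx3, Tbx4 and Tbx2, all higher in slow-biased muscles, against 66% of all genes (35.9% higher). The median of the 7 genes was 0.52, against 0.08 over all genes. At E18.5, none of the 9 genes passed in the same comparison, in which 0.368% of all genes passed. By unadjusted p below 0.05, 5 of the 9 genes did (Tbx4, Tbx5, Pitx1, Alx4 and Shox2), as did 1738 genes in all, and DESeq2 called 2, Tbx4 at 0.38 (adjusted p = 0.0272) and Tbx5 at -0.71 (adjusted p = 0.0462). The change of the slow-to-fast difference with stage was 1.79 ± 0.22 for Tbx3 (adjusted p = 6.23e-09), 0.88 ± 0.18 for Tbx2 (adjusted p = 5.51e-05) and 0.76 ± 0.21 for Tbx4 (adjusted p = 0.00249). With Alx4, 4 of 9 genes passed that test, 3 higher and 1 lower, against 50.8% of all genes (26.6% higher, 24.2% lower), so the share is near the background.

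Markers of several other cell types moved with the adult slow-to-fast difference, and some moved against it. Of the marker genes tested, 5 of 5 endothelial, 6 of 6 pericyte and smooth muscle, 4 of 4 leukocyte, 4 of 4 Schwann cell, 5 of 10 fibroblast and 3 of 6 tendon genes were higher in slow-biased muscles. The summed fibroblast markers ran from 2055 to 2564 CPM in soleus and 1617 to 2610 CPM in vastus intermedius, against 1039 to 2312 CPM in gastrocnemius and 905 to 2259 CPM in vastus lateralis. The pericyte markers summed to 400 to 541 and 383 to 673 CPM, against 217 to 355 and 144 to 407 CPM. None of these markers was at 0 throughout a group. Muscle fibre genes went the other way, with 5 of 6 lower and the myoglobin gene Mb higher. Satellite cell sums were also lower, at 16.7 to 26.8 CPM in soleus and 22.8 to 35.6 CPM in vastus intermedius. They were 37.8 to 67.9 CPM in gastrocnemius and 44.5 to 74.8 CPM in vastus lateralis. In the same order of muscles, skin sums had medians of 12.2, 12.5, 22.4 and 19.7 CPM. Adipocyte medians were 407, 280, 212 and 223 CPM, and cartilage and bone medians 23.6, 10.9, 5.39 and 6.32 CPM. The part of these cells in the differences of Tbx2, Tbx3 and Tbx4 was not tested.

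Tbx3 rose with age in the slow-biased muscles, by 1.64 ± 0.24 in soleus (adjusted p = 1.47e-05) and 1.07 ± 0.20 in vastus intermedius (adjusted p = 2.17e-04; 0.94, adjusted p = 0.00737, with the left-out library). In scaled CPM the stages did not overlap in either. Raw counts a library did overlap, at 695 to 1188 in adult and 262 to 1019 in E18.5 soleus, and at 400 to 1124 and 410 to 752 in vastus intermedius. In gastrocnemius raw counts were 129 to 333 in adults and 378 to 772 at E18.5. The size of these changes thus rests in part on the TMM scaling between stages, and a comparison by plain totals was not tested. In vastus lateralis it fell by 0.70 ± 0.19 (adjusted p = 0.00320). Gastrocnemius stood at -0.22 (95% interval -0.59 to 0.15; adjusted p = 0.288), or -0.38 (adjusted p = 0.0387) without adult collection E. Adult thigh minus shank for Tbx3 was -0.53 ± 0.15 (adjusted p = 0.0183), with overlapping libraries, and it no longer passed without adult collection E or F. Its change with stage was -0.55 (adjusted p = 0.109), which became -0.59 (adjusted p = 0.0458) with a block for the animal.

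Tbx2 fell with age in all 4 muscles. At E18.5 it was at 15.1, 24.2 and 32.1 CPM in soleus, 21.9, 26.8 and 31.2 CPM in gastrocnemius, 13.1, 17.5 and 22.3 CPM in vastus intermedius and 16.6, 18.9 and 26.5 CPM in vastus lateralis. In adults it was at 5.23, 7.37 and 9.77 CPM in soleus, 3.97, 5.79 and 6.82 CPM in gastrocnemius, 5.46, 6.38 and 8.11 CPM in vastus intermedius (n = 5) and 1.65, 3.82 and 4.57 CPM in vastus lateralis. The stages did not overlap in any muscle. In that order of muscles it fell by 1.66 ± 0.19, 2.32 ± 0.13, 1.38 ± 0.17 and 2.55 ± 0.20 (log2 ± SE; adjusted p from 8.68e-11 to 4.24e-06), with -0.98 (adjusted p = 0.0152) for vastus intermedius when the left-out library was kept. Adult slow-biased minus fast-biased was 0.70 ± 0.14 (adjusted p = 9.56e-05; 0.90 with that library), higher in 6 of 6 animals, with vastus lateralis below the other 3 muscles in each of 3 pair tests. The difference between thigh and shank was -0.42 ± 0.11 at E18.5 (adjusted p = 0.00858), lower in 5 of 6 animals, and -0.40 ± 0.14 in adults (adjusted p = 0.0430), lower in 6 of 6. The first no longer passed without E18.5 collection A (adjusted p = 0.0516), and the adult value no longer passed in 6 of 12 alternatives, among them without adult collection B, C, E or F and with the left-out library kept (-0.19, adjusted p = 0.606).

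Per kilobase, Tbx3 was below Tbx2 in all 24 E18.5 libraries and above it in all 23 adult libraries. The ratio of Tbx3 to Tbx2 had E18.5 medians of 0.503 in soleus, 0.440 in gastrocnemius, 0.799 in vastus intermedius and 0.529 in vastus lateralis, and its highest E18.5 value was 0.998. The adult medians were 5.22, 1.77, 4.31 and 1.97 in the same order, and the lowest adult value was 1.33. Tbx3 was the most abundant of the 9 genes per kilobase in each adult muscle, from 1.83 ± 0.475 CPM per kb in vastus lateralis to 10.5 ± 1.39 in soleus (SD, n = 6). At E18.5 the first place was held by Tbx2 in gastrocnemius (7.64 ± 0.974), Pitx1 in soleus (8.53 ± 1.90) and Shox2 in vastus intermedius (7.39 ± 3.10) and vastus lateralis (7.12 ± 2.13). The lead of Shox2 lay within its spread. Pitx1 was at 7.03 ± 1.77 in vastus lateralis, and Tbx4 (5.47 ± 0.762) and Pitx1 (5.46 ± 2.48) came next in vastus intermedius. Last came Tbx5 in each shank muscle and Hand2 in each thigh muscle, at both stages. In adult gastrocnemius this order lay within the spread, with Tbx5 at 0.0406 ± 0.0347 CPM per kb (14 counts in all) and Hand2 at 0.0484 ± 0.0530 (9 counts).

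**Figure D4:**
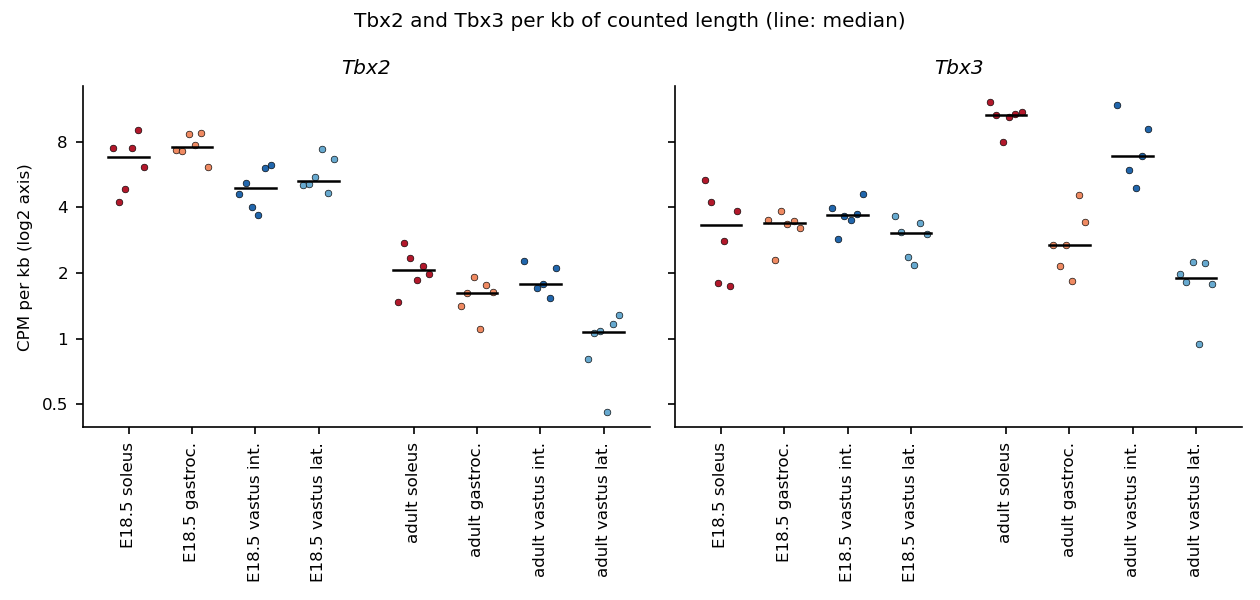
Tbx2 (left) and Tbx3 (right) in each library, in CPM per kilobase on a log2 axis, for 4 muscles at E18.5 and in adults (line: group median). Tbx2 is lower in every adult group, whereas Tbx3 lies between 4.92 and 12.2 CPM per kb in the adult slow-biased muscles and between 0.948 and 4.56 in the adult fast-biased muscles.

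Shox2 (chr3:66971723-66981771) was low in E18.5 soleus. It stood at 1.56, 3.22 and 11.4 CPM there, with the highest value in collection A and the other 5 at no more than 4.12 CPM. The other muscles were at 8.31, 10.3 and 12.3 CPM in gastrocnemius, 6.75, 10.9 and 20.01 CPM in vastus intermedius and 7.10, 11.3 and 15.5 CPM in vastus lateralis. Soleus was below vastus intermedius by 1.43 ± 0.34 (adjusted p = 0.00807) and below vastus lateralis by 1.37 ± 0.34 (adjusted p = 0.00947). Soleus minus gastrocnemius was -1.27 ± 0.34, with an adjusted p of 0.119 that became 0.0418 with a block for the animal and 0.0441 with DESeq2. The thigh exceeded the shank by 0.77 ± 0.24 (adjusted p = 0.0193), higher in 6 of 6 animals, and no longer passed without E18.5 collection B, E or F. The authors' DESeq2 comparison gave 0.64 (adjusted p = 0.114). Gastrocnemius did not pass the edgeR test against vastus intermedius (adjusted p = 0.797) or vastus lateralis (adjusted p = 0.879). Mean levels were 4.31 CPM in soleus and 10.4 in gastrocnemius, against 11.8 in vastus intermedius and 11.4 in vastus lateralis.

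Adult Shox2 was at 1.04 ± 0.285 CPM in soleus, 1.28 ± 0.507 in gastrocnemius, 0.844 ± 0.243 in vastus intermedius and 1.65 ± 0.924 in vastus lateralis (SD, n = 6, or 5 in vastus intermedius). The muscles overlapped and no pair passed the test with edgeR. DESeq2 called vastus intermedius below vastus lateralis (adjusted p = 0.0403, against 0.0775 with edgeR). Slow-biased minus fast-biased was -0.61 (adjusted p = 0.0808), or -0.62 (adjusted p = 0.0465) with DESeq2 and -0.64 (adjusted p = 0.0226) without adult collection D. Shox2 fell with age in each muscle, by 2.08 ± 0.43, 3.05 ± 0.22, 3.77 ± 0.33 and 2.74 ± 0.38 in that order (adjusted p from 1.88e-09 to 4.13e-04), with no overlap between stages. With the left-out library kept, the change in vastus intermedius was -2.15 (adjusted p = 0.0240). The gene Rsrc1 overlaps Shox2 and shares 3.15% of its 50-base words, and Rsrc1 itself differed between thigh and shank by 0.07 at E18.5 (adjusted p = 0.340).

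Lmx1b (chr2:33560965-33641208), the dorsal factor, was low throughout. At E18.5 it was at 0.642, 1.79 and 2.27 CPM in vastus lateralis, 0.268, 1.31 and 2.16 CPM in vastus intermedius, 0.312, 0.621 and 1.09 CPM in gastrocnemius and 0, 0.206 and 4.10 CPM in soleus. The highest value of all, 4.10 CPM or 144 counts, was the soleus library of collection C, and no other soleus library exceeded 0.446 CPM. Thigh minus shank was 0.94 ± 0.54 (adjusted p = 0.208), and 2.02 (adjusted p = 0.00260) without collection C. The same soleus library had the highest summed fibroblast markers of its group (18083 CPM), tendon markers (1070 CPM) and cartilage and bone markers (151 CPM), and their part in its Lmx1b level was not tested. Adult Lmx1b did not exceed 0.837 CPM. It fell with age by 2.39 ± 0.67 in vastus intermedius (adjusted p = 0.00552) and 2.55 ± 0.57 in vastus lateralis (adjusted p = 7.90e-04), and by 2.06 (adjusted p = 0.0177) in vastus intermedius with the left-out library. Gastrocnemius stood at -1.19 (adjusted p = 0.0779), or -1.67 (adjusted p = 0.0270) without adult collection D.

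Across the set, most genes were lower in adults. In soleus 7 of 7 tested genes passed the test of adult minus E18.5 (6 lower, 1 higher), in gastrocnemius 5 of 8 (all 5 lower), in vastus intermedius 8 of 8 (7 lower, 1 higher) and in vastus lateralis 8 of 8 (all lower). Most genes of the table passed as well, at 76%, 82.2%, 76.1% and 79%, so these counts are near the background. By direction, 39.7%, 44%, 39.2% and 42.6% of all genes were lower, and 36.3% in soleus and 36.9% in vastus intermedius were higher. The median log2 change of the set was -2.08, -2.06, -2.01 and -2.60, against -0.06, -0.12, -0.04 and -0.15 over all genes tested. Upper-quartile scaling moved the median of all genes by -0.07 to -0.14 in these comparisons, and Tbx3 was then at 1.69 in soleus and -0.56 in vastus lateralis relative to that median. A fibroblast list moved with age as well, with 7 of 10 genes lower in each muscle. Its summed level was 8454 to 19177 CPM in E18.5 libraries and 905 to 2610 CPM in adult libraries, and its part in the changes was not tested.

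**Figure D5:**
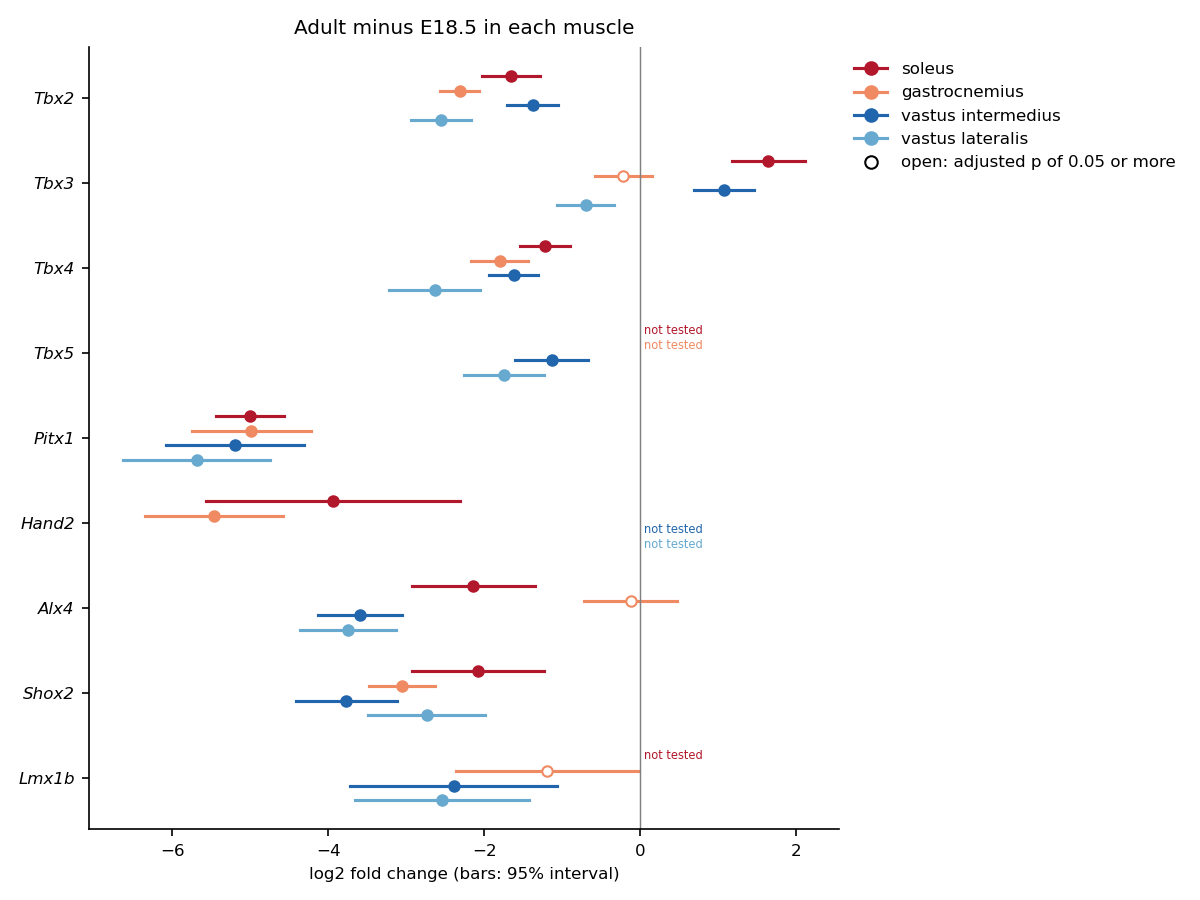
Adult minus E18.5 for each gene in each muscle, as the log2 fold change of edgeR's fit with its 95% interval; filled points passed the test. Tbx3 is the only gene above 0, at 1.64 in soleus and 1.07 in vastus intermedius, and Pitx1 lies near -5 in all 4 muscles.

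The muscle pairs at E18.5 gave 4 of 9 genes for soleus minus vastus intermedius (11.2% of all genes), 5 of 9 for soleus minus vastus lateralis (13.2%), 4 of 9 for gastrocnemius minus vastus intermedius (12.8%) and 5 of 9 for gastrocnemius minus vastus lateralis (11.1%). Between the vastus muscles none passed (0.0317%), with 1 gene, Tbx4, and 1013 genes in all at an unadjusted p below 0.05 and none of the 9 by DESeq2. Tbx5 and Hand2 each passed in the 4 pairs that join a thigh and a shank muscle. In adults, Tbx5 passed in these same 4 pairs, and 4 of 7 genes passed between soleus and vastus lateralis (62.8%), 3 between soleus and gastrocnemius (53.5%) and 3 between the vastus muscles (52.2%). The remaining adult pairs gave 3 for gastrocnemius minus vastus lateralis (5.64%), 2 for gastrocnemius minus vastus intermedius (40.2%) and 1, Tbx5, for soleus minus vastus intermedius (17.2%), where DESeq2 also called Tbx4 (adjusted p = 0.0398, against 0.0751 with edgeR). Pitx1, Alx4 and Shox2 passed in no adult pair with edgeR. These comparisons share libraries and are not independent of each other.

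The change of thigh minus shank with stage passed for 2 of 9 genes, Alx4 and Tbx4, both lower, against 11.1% of all genes (8.07% lower). Tbx4 was at -0.64 ± 0.21 (adjusted p = 0.0428), and it no longer passed in 10 of 18 alternatives, among them the left-out library kept (-0.36, adjusted p = 0.484). No size of this change is given for Hand2, since the adult thigh held no count.

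Tissue markers also differed between thigh and shank at E18.5. Of the muscle fibre genes, 5 of 6 were higher in the thigh, with sums of 18881 to 34561 CPM there and 8639 to 24095 CPM in the shank. All 3 satellite cell genes and 3 of 6 tendon genes (Scx, Mkx and Fmod) were lower in the thigh, where tendon sums were 165 to 582 CPM, against 202 to 1070 CPM in the shank. In adults the tendon genes Scx, Mkx and Thbs4 were lower in the thigh. Fibroblast genes gave 1 of 10 higher at E18.5 (Lum) and 0 of 10 in adults. The part of these cells in the differences above was not tested.

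Other limb patterning genes, from lists of the same pathways, showed where the set stands. Among 13 other T-box genes, 7 could be tested between thigh and shank at E18.5, and 2 were higher in the thigh, Tbx1 at 1.68 (adjusted p = 0.00388) and Tbx15, a muscle T-box factor, at 0.31 (adjusted p = 0.00169). In adults 3 of 6 were higher, Tbx1 at 2.27, Tbx21 at 1.21 and Tbx15 at 0.63, and Tbx18 was lower at -0.93. Of 14 homeobox and bHLH factors tested at E18.5, Lhx9 (3.61), Emx2 (1.37) and Prrx1 (0.34) were higher and Isl1, which acts upstream of hindlimb outgrowth, was lower at -3.36 (adjusted p = 8.52e-04). Isl1 was also lower in the adult thigh, at -4.76 (adjusted p = 5.12e-04), with 4 of 12 of this list lower and none higher.

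Of 20 tested signalling and zinc finger genes of the limb bud, Evx2 was higher in the E18.5 thigh at 6.23 (adjusted p = 3.06e-05), and Fgf4 at -2.36, Bmp7 at -1.60 and Gli3 at -0.34 were lower. Levels were low: Evx2 did not exceed 1.38 CPM and Lhx9 did not exceed 2.00 CPM in any E18.5 group, so their folds rest on few counts. With age, 14 of 17 of this list fell in soleus, 14 of 18 in gastrocnemius, 15 of 19 in vastus intermedius and 13 of 17 in vastus lateralis, against 39.7%, 44%, 39.2% and 42.6% of all genes tested. Rspo2, a secreted Wnt agonist, fell in each muscle, by 4.98, 4.72, 3.90 and 6.34. In the adult slow-to-fast comparison 9 of 12 homeobox and bHLH genes were higher in slow-biased muscles, against 35.9% of all genes, with Barx2 at 2.81 and Emx2 at 1.86, and Twist1 was lower at -1.11. Of the T-box list, Tbx18 was higher at 2.20, and Tbx21 at -2.06 and Tbx15 at -1.53 were lower, opposite in sign to Tbx2, Tbx3 and Tbx4.

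For each gene the 3 genes with the most similar profile were found among 13865 genes, as the correlation of log2 CPM over 47 libraries after centring each stage. Likeness was closest for Tbx3, with Pgm2 (r = 0.91), Msn (0.90) and Cerk (0.90), and for Tbx4, with Uchl1 (0.90), Lrrn1 (0.88) and Ptpn13 (0.86). Tbx2 was followed by AW549542 (0.82), Sipa1l2 (0.81) and Spred2 (0.78). AW549542 is a lncRNA gene that lies 90176 bases from Tbx3.

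Nearest to Tbx5 were the Hox genes Hoxc6 (0.77) and Hoxc8 (0.75) and the metalloreductase gene Steap4 (0.73). Hoxc6 was at 15.3 ± 4.79 and 16.5 ± 2.79 CPM in E18.5 vastus intermedius and lateralis, against 5.86 ± 1.16 in soleus and 5.82 ± 1.05 in gastrocnemius (SD, n = 6). Alx4 was nearest to Steap4 as well (0.67), and then to Rpl3l (0.66) and Eef1a2 (0.65). Pitx1 was nearest to Olfml3 (0.74), Ctsk (0.68) and Cercam (0.66), and Shox2 to Siglec1 (0.66), Bcl2l15 (0.62) and 0610038B21Rik (0.61). Hand2 and Lmx1b were too low in adults to enter. These libraries share animals, muscles and composition, so the values are descriptions.

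Genes next to Tbx5, Hand2 and Tbx2 were also compared. Tbx3, next to Tbx5, did not differ between thigh and shank at E18.5 beyond its spread (95% interval -0.29 to 0.29). Sap30, 158185 bases from Hand2, was higher in the E18.5 thigh by 0.75 (adjusted p = 2.03e-04), the opposite sign to Hand2. Bcas3, which neighbours Tbx2, was higher there by 0.22 (adjusted p = 0.0124), where Tbx2 and Tbx4 were lower. Of the 50-base words in each gene's transcripts, Tbx2 and Tbx4 shared none with another gene, and Pitx1 shared 6.79% with Gm28760 and Gm47071, so counts of Pitx1 and Hand2 are the least certain in this respect.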

How the data were processed

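The deposited count table gives unnormalized reads and a length for each gene in 48 libraries, and further tables of the authors hold log2 fold changes and p-values of their comparisons. The submitters' processing notes name STAR 2.7.11, Subread 2.0.6 (featureCounts), Trimmomatic 0.39.0, FastQC 0.11.5 and DESeq2 1.44.0, with the build mm10. The annotation and strand setting of the counting were not given in the sources used here. All 48 count columns were matched to a stage and muscle by name, with 0 per-sample columns left unmatched. Of 27179 genes, 25281 had a symbol. No pair of libraries of a group was a duplicate (chi-square per degree of freedom at least 10.8).

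CPM was computed by edgeR from library totals with TMM factors, and CPM per kb divides it by the deposited length. Tests used edgeR 4.0.16 (limma 3.58.1, R 4.3.3): filterByExpr with a minimum count of 10, TMM scaling, the quasi-likelihood test and Benjamini-Hochberg adjustment over all genes tested, with a threshold of 0.05. E18.5 (24 libraries), adult (23), both stages (47) and each muscle were fitted separately. Replicates are animals. The collection tag of the columns was taken as the animal, since the labels state that all 4 muscles came from the same mice. Deviations from group means correlated at 0.197 (E18.5) and 0.117 (adult) within a collection, and at -0.0390 and -0.0238 between collections. The lowest single correlation within a collection was -0.184. The SE of an edgeR log2 fold change is its absolute value divided by the square root of the F statistic, so it restates the test. Intervals of log2 fold changes are 95%, from this SE and normal quantiles, and count ratios have exact 95% intervals.

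The 9 genes and all lists were chosen with earlier results of these data known. Named were the 9 genes, up to 4 genes of largest change that passed per list and comparison, and the 3 genes of highest correlation for each of the 9. Alternatives were DESeq2 1.42.0, other scalings, no filter, a block for the animal, each collection left out, and all libraries kept. The code was tested on simulated data. No protein sequence was used.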

Additional observations from a re-analysis of the deposited data

Results flagged for a closer look

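In 7 of 72 groups of libraries 1 value stood apart from the others by Dixon's criterion, where chance gives about 1 in 20 among groups of freely varying values. That rate does not hold for groups at or near 0 counts, among them both Hand2 groups given here. Tbx3 was at 40.4 CPM in adult soleus of collection C, against 52.9 to 62.1 CPM in the others. It was at 4.82 CPM in adult vastus lateralis of collection D (others 9.06 to 11.5 CPM) and at 11.6 CPM in E18.5 gastrocnemius of collection B (others 16.3 to 19.6 CPM). Shox2 was at 0 CPM in that adult vastus lateralis library of collection D, where the others held 1.37 to 2.71 CPM. The same library had the highest summed fibre markers of its group, 230443 CPM. Lmx1b was at 0.642 CPM in E18.5 vastus lateralis of collection B (others 1.52 to 2.27 CPM). Hand2 was at 0.0313 CPM, 1 count, in E18.5 vastus intermedius of collection F and at 0.106 CPM, 4 counts, in E18.5 vastus lateralis of collection A, and the other thigh libraries of these groups held none.

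Some differences between muscles themselves differed between the stages by the interaction test of edgeR. Thigh minus shank changed by -2.57 for Alx4 and -0.64 for Tbx4. Slow-biased minus fast-biased changed by 1.79 for Tbx3, 0.88 for Tbx2, 0.76 for Tbx4 and -0.96 for Alx4.

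The left-out library labelled adult vastus intermedius held more of 7 of the 9 genes than any of the other 5 libraries of that label. It held 22.2 CPM of Tbx4, 19.7 of Tbx2, 13.9 of Pitx1, 11.4 of Shox2, 10.5 of Alx4, 5.76 of Tbx5 and 0.542 of Lmx1b. Hand2 was at 0 there, and Tbx3, at 18.8 CPM, was below the 25.005 to 59.9 CPM of the others.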

How the results depend on the processing

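None of the values named for single genes that passed the test changed sign under an alternative. The count of the 9 genes passing at E18.5 between slow-biased and fast-biased muscles was 0, and 2 with DESeq2, while the count over all genes rose from 58 to 274 with DESeq2 and 212 with the block. The adult thigh minus shank count of 4 was 2 with all libraries kept and ranged from 2 to 4 with a collection left out, and the count over all genes, 2736, was 1118 with all kept, 1477 without E and 1679 without F. The change of thigh minus shank with stage, 2 genes, gave 1 with RLE size factors, 1 with all libraries kept, 1 without the filter, 1 to 2 with a collection left out, and 3 with DESeq2, which added Hand2, and with the block, which added Tbx3. The block for the animal changed the call of Tbx3 in that change (-0.59, adjusted p = 0.0458) and of no other gene in the contrasts of muscle groups. In muscle pairs it added Shox2 (adjusted p = 0.0418) and Pitx1 (adjusted p = 0.0249) at E18.5 and adult Tbx3 between gastrocnemius and vastus lateralis (adjusted p = 0.0475). Tbx5's change of slow minus fast with stage, 0.94 (adjusted p = 0.0903), was 0.99 (adjusted p = 0.0360) with DESeq2 and 1.22 (adjusted p = 0.0388) without adult collection A. The cause of these shifts was not tested. Too few counts for the filter kept Hand2 and Lmx1b out of the adult comparisons, Tbx5 out of the comparison of ages in both shank muscles, Lmx1b out of that in soleus and Hand2 out of that in both vastus muscles.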

Other observations

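In the authors' deposited table of the adult thigh and shank comparison, Pitx1 is listed at -0.43. The value here was -0.37 without the left-out library and 1.09 with it.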
